A study of Homo sapiens with 18 samples.

Results

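Cells overexpressing the SR protein SRSF4 were set directly against cells overexpressing the SR-like protein TRA2B, to ask which genes differ in level between cultures that carry one splicing factor rather than the other. The comparison uses the samples titled SRSF4-OE (replicates 1 to 3) and TRA2B-OE (replicates 1 to 3), 6 of the 18 samples of the series. Both groups are MCF-10A, a human breast epithelial line that is immortal but does not form tumours, carrying a stably expressed retroviral construct with the coding sequence of SRSF4 or of TRA2B, and both were grown as three-dimensional structures in Matrigel, a basement membrane gel, for 8 days. The Control group, which carries the empty vector PWZL, and the SRSF2-OE, SRSF6-OE and SRSF9-OE groups are not part of the contrast. They entered the filter, the normalisation and the model's estimates of spread and of a term for the kind of library label. Neither side of the contrast is the parental state. The labels name no clones, and they do not say whether replicates were separate cultures, so the p-values here speak only of the spread among these libraries, and that spread may be technical.

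In each of the 2 groups, the columns of replicates 1 and 2 shared a library ID and a barcode, and only the sequencing lane set them apart. Summing those lanes left 2 libraries for SRSF4-OE and 2 for TRA2B-OE, 4 of 14 in all. The replicates 1-2 library held 83119075 counts in SRSF4-OE and 92111707 in TRA2B-OE, and the replicate 3 library held 47704939 counts in SRSF4-OE and 52250764 in TRA2B-OE. The 2 replicates 1-2 libraries carry library IDs and the 2 replicate 3 libraries carry numeric labels, so the groups can be compared within each kind of label, and these 2 matched pairs are used throughout. Within the first pair the groups also lie on different sequencing lanes, so lane and group cannot be told apart there.

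SR proteins bind short exonic sequences through RNA recognition motifs and recruit the splicing machinery through a domain rich in arginine and serine. TRA2B is a relative of this family, related to the Drosophila sex-determination factor Transformer-2, and favours purine-rich enhancers. Both kinds of protein also act on RNA export, stability and translation, and many of their own transcripts are tuned through exons that trigger nonsense-mediated decay. The deposited table gives counts per gene, which report RNA level and not splicing, and they do not separate an introduced coding sequence from the endogenous gene.

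SRSF4 set the SRSF4-OE libraries apart, whereas TRA2B did not set the TRA2B-OE libraries apart. SRSF4 stood at 187 and 168 CPM (the standard depth-scaled unit, with library size normalised by TMM) in SRSF4-OE replicates 1-2 and 3, against 106 and 93.0 CPM in TRA2B-OE replicates 1-2 and 3. Both SRSF4-OE libraries were above both TRA2B-OE libraries and above all 10 libraries of the other groups, which spanned 71.4 to 103 CPM. The log2 fold change, SRSF4-OE over TRA2B-OE, was 0.84 ± 0.15 (standard error, edgeR quasi-likelihood fit), with 0.82 in the replicates 1-2 pair and 0.85 in the replicate 3 pair.

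TRA2B stood at 158 and 168 CPM in SRSF4-OE replicates 1-2 and 3, against 201.3 and 147 CPM in TRA2B-OE replicates 1-2 and 3. The groups overlapped: the library labelled TRA2B-OE replicate 3 held less TRA2B RNA than either SRSF4-OE library, while TRA2B-OE replicates 1-2 held the most of all 14 libraries. The log2 fold change was -0.083 ± 0.16 (adjusted p = 0.955 by edgeR), with -0.35 in the replicates 1-2 pair and 0.19 in the replicate 3 pair. Outside the 2 groups TRA2B spanned 105 to 154 CPM, with Control replicates 1-2 and 3 at 106 and 105 CPM. Both SRSF4-OE libraries and TRA2B-OE replicates 1-2 were above all 10 of those libraries. TRA2B-OE replicate 3 lay inside their range and above both Control libraries. Genes lower or higher in SRSF4-OE are therefore differences between libraries labelled by construct, and TRA2B RNA itself was not detectably higher in TRA2B-OE than in SRSF4-OE.

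**Figure D1:**
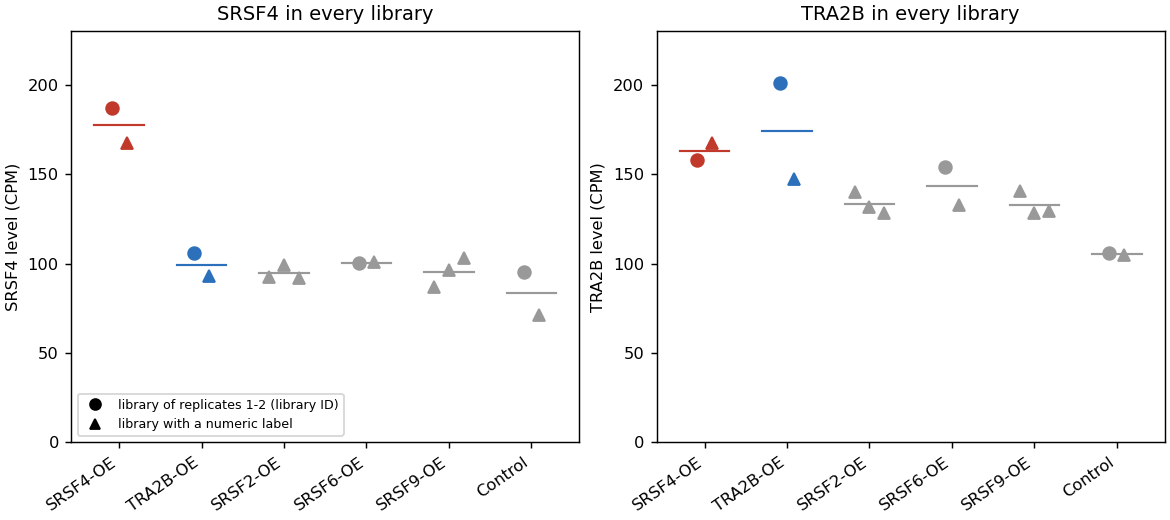
Levels of SRSF4 (left) and TRA2B (right) in CPM in each of the 14 libraries, by group; circles are libraries of replicates 1-2, triangles libraries with numeric labels, and horizontal lines group means. SRSF4 is at 168 CPM or more in both SRSF4-OE libraries and at 106 CPM or less in every other one, while TRA2B at 201.3 CPM in TRA2B-OE replicates 1-2 stands beside 147 CPM in replicate 3, below both SRSF4-OE libraries.

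The other members of the SR family were close to even. Of 14 SR genes, SRSF4 and TRA2B included, 13 passed the filter on low counts, 9 with a fold change above 0 and 4 below. The median log2 fold change of these 13 was 0.048 (0.17 without TRA2B-OE replicate 3) beside -0.047 over all 21326 genes tested. SRSF7, a regulator of splicing and of RNA export, stood at 174 and 162 CPM in SRSF4-OE, against 152 and 116 CPM in TRA2B-OE (log2 fold change 0.34 ± 0.13). SRSF6, a factor of skin and epithelial splicing, stood at 448 and 352 CPM in SRSF4-OE, against 343 and 286 CPM in TRA2B-OE (0.34 ± 0.22). With SRSF4 itself these were the SR genes whose libraries did not overlap, all 3 with SRSF4-OE above, where 17.2% of all genes were above in this way; edgeR's adjusted p was 0.784 for SRSF7 and 0.854 for SRSF6. The rarely expressed SRSF12 had a log2 fold change of -0.80 ± 0.36 at 0.756 and 0.396 CPM in SRSF4-OE, against 1.27 and 0.729 CPM in TRA2B-OE. SRSF2, SRSF9, SRSF1, SRSF3, SRSF5, SRSF10, SRSF11 and TRA2A, a paralog of TRA2B, lay between -0.20 and 0.17.

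The 2 TRA2B-OE libraries differed more from each other than the replicates 1-2 libraries of the 2 groups did. Across genes, log2 CPM of the SRSF4-OE libraries correlated at 0.984 with each other and that of the TRA2B-OE libraries at 0.954, while the replicates 1-2 libraries of the 2 groups correlated at 0.983. These are descriptions over genes, which are not replicates. TRA2B-OE replicate 3 stood apart: it lay closest to SRSF2-OE replicate 1 (0.989), and 14.3% of its counts came from mitochondrially encoded genes, against 9.18% in TRA2B-OE replicates 1-2, while SRSF4-OE had 8.58% and 8.96%. Keratins KRT5 and KRT14 and the basal factor TP63 were expressed in all 4 libraries (KRT5 at 7079 to 20010 CPM), while the fibroblast collagen COL1A2 and the adipocyte hormone ADIPOQ were listed at 0 in all 4. Genes that most cells use, such as the splicing kinase gene CLK2 and the splicing regulator gene RBM10, are also listed at 0 in every library, so a 0 in this table may come from the counting and does not show that a gene was silent. The log2 ratio SRSF4-OE over TRA2B-OE had an SD over genes of 0.619 in the replicates 1-2 pair and 1.095 in the replicate 3 pair, the ratios of the pairs correlated at 0.250, and 54.4% of genes had the same sign in both.

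By edgeR's quasi-likelihood test, 0 of 21326 genes (0%) passed a Benjamini-Hochberg adjusted p of 0.05, and the smallest adjusted p was 0.583. Before adjustment, 1326 genes (6.22%) lay under 0.05, 617 of them higher in SRSF4-OE (2.89%) and 709 lower (3.32%). No gene passed limma-voom (0 calls), and both SRSF4-OE libraries lay on one side of both TRA2B-OE libraries in 36.3% of genes. DESeq2 with the same terms called 76 genes (0.356%), 37 higher in SRSF4-OE (0.173%) and 39 lower (0.183%). The named genes rest on those calls, and their edgeR adjusted p were 0.583 to 0.784. Log2 fold changes given with ± are edgeR's throughout, also where a DESeq2 adjusted p stands beside them. With the 18 samples taken as separate replicates, which counts lanes as replicates, edgeR called 150 genes (0.713%). Without the replicate block, the label set term, DESeq2 called 27, of which 26 were among the 76. The SRSF4 difference was among the 76 (DESeq2 adjusted p = 5.0e-04), and of the 4 fits without a library it passed in 1 (adjusted p = 0.013 to 0.463).

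The DESeq2 calls moved with single libraries. DESeq2 called 41 genes without TRA2B-OE replicate 3, 15 of them among the 76; 789 without TRA2B-OE replicates 1-2, 55 of them among the 76; 12 without SRSF4-OE replicates 1-2, 8 of them shared; and 13 without SRSF4-OE replicate 3, 10 of them shared. In these fits the lone remaining library of a group is assumed to vary like the other groups. That library is also adjusted by the label set term, estimated from groups with both kinds of label, Control and SRSF6-OE among them. Fold changes from fits without a library can therefore lie outside both pair ratios. Of the 76, 3 passed in all 4 such fits, 2 in 3 of them, 9 in 2, 52 in 1 and 10 in 0. Of the 24 genes named by rule, 2 passed in all 4, 5 in 2 and 17 in 1, and in 15 the fold moved by more than 1.5 times in at least 1 of these fits. All 76 kept their direction in every fit in which they were tested. In 74 of them the groups did not overlap in these same libraries, so a reversal was unlikely beforehand.

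**Figure D2:**
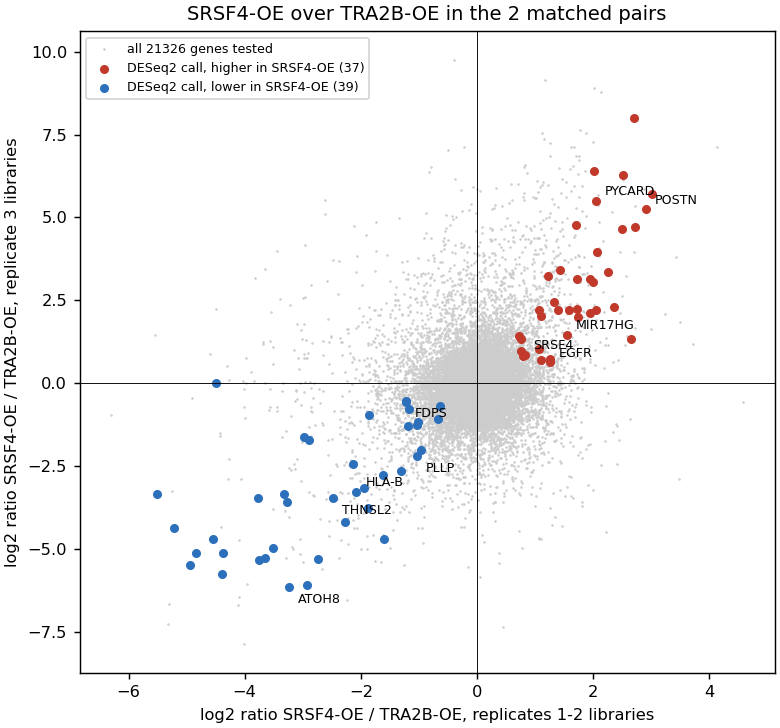
Each point is a gene, at its log2 ratio SRSF4-OE over TRA2B-OE in the replicates 1-2 libraries (horizontal) and in the replicate 3 libraries (vertical); coloured points are the 37 higher and 39 lower DESeq2 calls. The cloud is wider vertically, with an SD of 1.095 against 0.619. The calls lie along the diagonal at both ends, but they were picked from these same libraries, so like signs in both pairs were likely beforehand.

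The genes that DESeq2 called whichever of the 4 libraries was left out were THNSL2, EYA2 and RNF165. THNSL2, a threonine synthase-like gene, stood at 3.37 and 2.88 CPM in SRSF4-OE, against 18.9 and 32.1 CPM in TRA2B-OE. Both SRSF4-OE libraries were below every other library of the series, whose levels were 8.89 to 34.6 CPM outside the 2 groups. Its log2 fold change was -3.03 ± 0.44 (DESeq2 adjusted p = 1.1e-07), and by DESeq2 it ran from -3.48 to -2.45 as libraries were left out. RNF165, a RING-type ubiquitin ligase gene, stood at 9.62 and 11.01 CPM in SRSF4-OE, against 2.46 and 2.502 CPM in TRA2B-OE. Here it was the TRA2B-OE libraries that lay outside the other 10 (3.46 to 14.8 CPM). The log2 fold change of 2.05 ± 0.33 (DESeq2 adjusted p = 1.9e-05) was nearly equal in both pairs, at 1.96 and 2.12, and DESeq2's adjusted p was 0.0011 to 0.0495 over the fits without a library. EYA2, a transcriptional coactivator and phosphatase of the eyes absent family, stood at 1.86 and 3.69 CPM in SRSF4-OE, against 0.304 and 0.118 CPM in TRA2B-OE. Its log2 fold change was 3.65 ± 0.56 (DESeq2 adjusted p = 1.7e-06). EYA2 lay below the 5 CPM asked of other named genes, and was chosen after its values were seen.

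A transcript that carries microRNAs was also among the calls. MIR17HG, the host transcript of the miR-17-92 cluster on chromosome 13, stood at 11.1 and 7.30 CPM in SRSF4-OE, against 3.78 and 2.64 CPM in TRA2B-OE. Outside the 2 groups it spanned 3.50 to 13.4 CPM, with Control replicates 1-2 and 3 at 13.4 and 8.44 CPM. Both SRSF4-OE values lay inside that range. Of the other 10 libraries, 9 were above both TRA2B-OE libraries, but SRSF2-OE replicates 1, 2 and 3 were also low, at 3.50, 3.88 and 4.86 CPM. Both SRSF4-OE libraries were above both TRA2B-OE libraries, and the pairs gave log2 ratios of 1.55 and 1.46. The fold change was 1.51 ± 0.27 (DESeq2 adjusted p = 1.3e-04), and DESeq2's call held in 3 of the 4 fits without a library (adjusted p = 0.181 without SRSF4-OE replicates 1-2). It was named after its values were seen. The main mature strands of the cluster are shown because the transcript matters through them. Each is printed 5′ to 3′ from RefSeq (GRCh38.p14) with the seed, bases 2 to 8, in capitals:
hsa-miR-17-5p: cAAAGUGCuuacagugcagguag
hsa-miR-20a-5p: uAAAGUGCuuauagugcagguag
hsa-miR-18a-5p: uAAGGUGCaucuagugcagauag
hsa-miR-19a-3p: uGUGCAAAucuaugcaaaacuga
hsa-miR-19b-3p: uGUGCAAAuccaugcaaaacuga
hsa-miR-92a-3p: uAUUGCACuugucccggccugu
The strands fall into 4 seed groups: miR-17-5p with miR-20a-5p (AAAGUGC), miR-19a-3p with miR-19b-3p (GUGCAAA), and miR-18a-5p and miR-92a-3p with a seed each. The libraries were made with an mRNA kit, so the mature microRNAs themselves were not measured.

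Among the protein-coding DESeq2 calls higher in SRSF4-OE, at 5 CPM or more there and without overlap, the widest separation by the smaller of the 2 pair ratios was that of POSTN, which encodes periostin, a matrix protein that binds integrins. POSTN stood at 6.52 and 4.88 CPM in SRSF4-OE, against 0.842 and 0.0985 CPM in TRA2B-OE. Its log2 fold change was 3.96 ± 1.08 (DESeq2 adjusted p = 0.0083), with pair ratios of 2.91 and 5.25. Both SRSF4-OE values lay inside the range of the other 10 libraries (0.647 to 15.9 CPM). CERS4, a ceramide synthase gene, stood at 8.75 and 8.80 CPM in SRSF4-OE, against 1.67 and 1.75 CPM in TRA2B-OE. In CERS4 the TRA2B-OE libraries were below all 10 others, and the pairs were alike at 2.37 and 2.31 (2.36 ± 0.60, DESeq2 adjusted p = 0.021).

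PYCARD, the inflammasome adaptor also called ASC, stood at 9.79 and 11.1 CPM in SRSF4-OE, against 2.33 and 0.217 CPM in TRA2B-OE (log2 fold change 3.57 ± 1.21, DESeq2 adjusted p = 0.044). PEAR1, a receptor known from platelets and endothelium, stood at 14.8 and 17.4 CPM in SRSF4-OE, against 4.92 and 3.74 CPM in TRA2B-OE (1.88 ± 0.43, DESeq2 adjusted p = 0.012). MMP17, a membrane-anchored matrix metalloproteinase, stood at 7.34 and 6.86 CPM in SRSF4-OE, against 2.89 and 1.22 CPM in TRA2B-OE (1.82 ± 0.43, DESeq2 adjusted p = 0.019). In these 3 genes, and in no other of the 12 named as higher, both SRSF4-OE libraries were above all 10 libraries of the other groups.

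The remaining higher genes were the zinc-finger gene ZNF711 (3.71 ± 1.06), the ganglioside GD3 synthase gene ST8SIA1 (2.36 ± 0.64), the synaptic adhesion gene NLGN4X (3.13 ± 0.95), CCDC106 (2.40 ± 0.67), the homeobox gene HOXB3 (2.10 ± 0.50) and the cardiac troponin T gene TNNT2 (1.56 ± 0.39), all DESeq2 calls. In ZNF711 the 2 TRA2B-OE libraries were far apart: it stood at 37.2 and 20.8 CPM in SRSF4-OE, against 9.17 and 0.217 CPM in TRA2B-OE, a log2 ratio of 2.02 in the replicates 1-2 pair and 6.39 in the replicate 3 pair. Of the 24 genes named by rule, 21 had the larger ratio in the replicate 3 pair, and 59 of all 76 calls did.

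**Figure D3:**
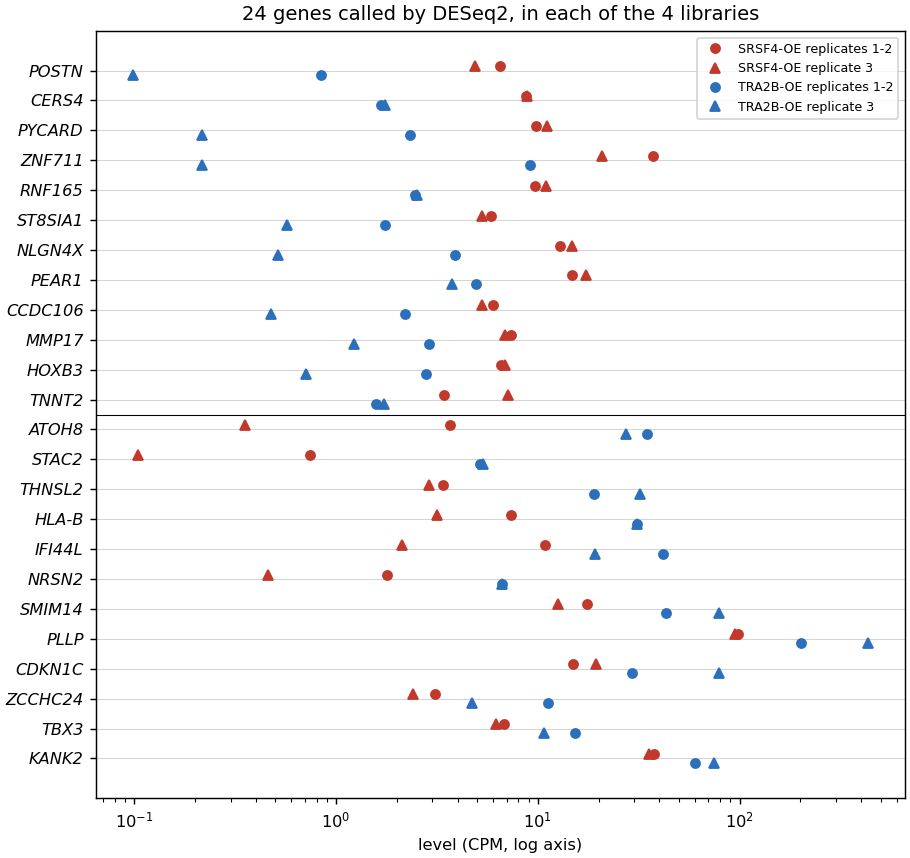
Levels in CPM (log axis) of the 12 protein-coding genes furthest above (top) and the 12 furthest below (bottom) in SRSF4-OE among DESeq2 calls; red marks are the SRSF4-OE libraries and blue marks the TRA2B-OE libraries, circles replicates 1-2 and triangles replicate 3. Red and blue do not overlap in any row, because only genes without overlap were picked. In several upper rows the TRA2B-OE replicate 3 triangle lies far left of its circle, as for ZNF711 at 0.217 against 9.17 CPM.

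EGFR, the receptor for the epidermal growth factor on which MCF-10A culture depends, was higher in SRSF4-OE. It stood at 1246 and 1497 CPM in SRSF4-OE, against 520 and 967 CPM in TRA2B-OE. Its log2 fold change was 0.94 ± 0.23 (DESeq2 adjusted p = 0.019), with 1.26 in the replicates 1-2 pair and 0.63 in the replicate 3 pair. TRA2B-OE replicates 1-2 was below every other library, the next lowest of the other groups being 842 CPM. DESeq2 kept the call without TRA2B-OE replicate 3 (adjusted p = 0.014) and lost it without each of the other 3 libraries (0.130 to 0.876). EGFR-AS1, annotated antisense to it, stood at 30.9 and 42.0 CPM in SRSF4-OE, against 12.9 and 25.3 CPM in TRA2B-OE (0.99 ± 0.21). How the counting treated strand was not found in the labels or notes, so reads of these 2 genes may be shared. In the list of EGF receptor family genes and ligands, 14 of 16 genes were tested and EGFR was the DESeq2 call, against 0.356% of all genes. Of these, 9 lay above 0 and 5 below, with a median of 0.089, and the sign turned with TRA2B-OE replicate 3: the pair medians were -0.23 and 1.203, and the median without that library was -0.25.

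Of the 12 genes named as lower in SRSF4-OE, HLA-B belongs to antigen presentation and IFI44L to the interferon response. HLA-B, an MHC class I heavy chain, stood at 7.35 and 3.15 CPM in SRSF4-OE, against 31.1 and 30.9 CPM in TRA2B-OE. The TRA2B-OE libraries were nearly equal and both SRSF4-OE libraries were below them (log2 fold change -2.72 ± 0.75, DESeq2 adjusted p = 0.028, pair ratios -2.08 and -3.28). Of the other 10 libraries 7 were above both SRSF4-OE libraries. SRSF2-OE replicates 2 and 3 were likewise low, at 5.57 and 5.33 CPM, and so was SRSF6-OE replicate 3, at 3.745 CPM. HLA-B shares long stretches with its paralogs, so its counts depend on how multiply aligned reads were treated. HLA-C, a paralog, had 26.9 and 31.9 CPM in SRSF4-OE, against 38.9 and 42.6 CPM in TRA2B-OE (-0.47 ± 0.17, adjusted p = 0.784 by edgeR). The shared light chain gene B2M had overlapping libraries, at a log2 fold change of -0.23 ± 0.18.

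IFI44L, an interferon-stimulated gene, stood at 10.8 and 2.13 CPM in SRSF4-OE, against 41.8 and 19.3 CPM in TRA2B-OE (-2.72 ± 0.76, DESeq2 adjusted p = 0.033). Within each group the replicates 1-2 library was the higher, and SRSF4-OE was lower in both pairs, at -1.94 and -3.16. BST2, or tetherin, which holds budding viruses at the membrane, stood at 1.51 and 0.417 CPM in SRSF4-OE, against 26.6 and 46.1 CPM in TRA2B-OE. Its log2 fold change was -5.26 ± 1.71, just short of DESeq2's threshold (adjusted p = 0.066). Of the other 10 libraries 8 were above both SRSF4-OE libraries, but SRSF2-OE replicates 2 and 3 were likewise low, at 0.683 and 1.19 CPM. IFI44, a relative of IFI44L, had a log2 fold change of -1.78 ± 0.59 and did not pass either test.

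Of 40 interferon-stimulated genes, 38 were tested: 29 had a log2 fold change below 0 and 9 above, with a median of -0.32 beside -0.047 over all genes tested, and IFI44L was the DESeq2 call. In 18 both SRSF4-OE libraries were below both TRA2B-OE libraries, against 19.2% of all genes, and in 3 both were above, against 17.2%. The median was -0.29 in the replicates 1-2 pair and -0.38 in the replicate 3 pair, and it was -0.16 without TRA2B-OE replicate 3. The sensor gene OAS1 went the other way, with a log2 fold change of 0.73 ± 0.39 and SRSF4-OE above in both pairs. In the list of MHC class I and antigen processing genes, 7 of 13 were tested, 5 below 0 and 2 above, with a median of -0.34. The complement list had 10 tested genes, 7 below 0, and 0 calls.

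The promoter of IFI44L is shown because interferon-stimulated genes are classically read through elements of paired GAAA repeats. The 300 bases from 250 before to 50 after its start are chr1:78620198-78620497, plus strand, in RefSeq on GRCh38.p14, with matches to GAAA, any 2 bases, GAAA (both strands searched) in capitals:
IFI44L: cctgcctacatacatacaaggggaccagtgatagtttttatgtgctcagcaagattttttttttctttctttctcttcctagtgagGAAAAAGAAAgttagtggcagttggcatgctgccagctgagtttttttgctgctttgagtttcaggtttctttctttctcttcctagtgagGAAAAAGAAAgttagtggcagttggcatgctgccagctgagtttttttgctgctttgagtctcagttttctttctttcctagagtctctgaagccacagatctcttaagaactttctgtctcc
The window held 2 matches, in a repeated stretch. Of 35116 promoters in the table, 3.57% held the motif, and of the 30 tested interferon-stimulated genes with a promoter there, 20 did. Among those 20, 13 had a log2 fold change below 0, with a median of -0.23, and among the 10 without a match 9 did, with a median of -0.21. The medians of the genes with and without the match were close, which says nothing about any factor.

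**Figure D4:**
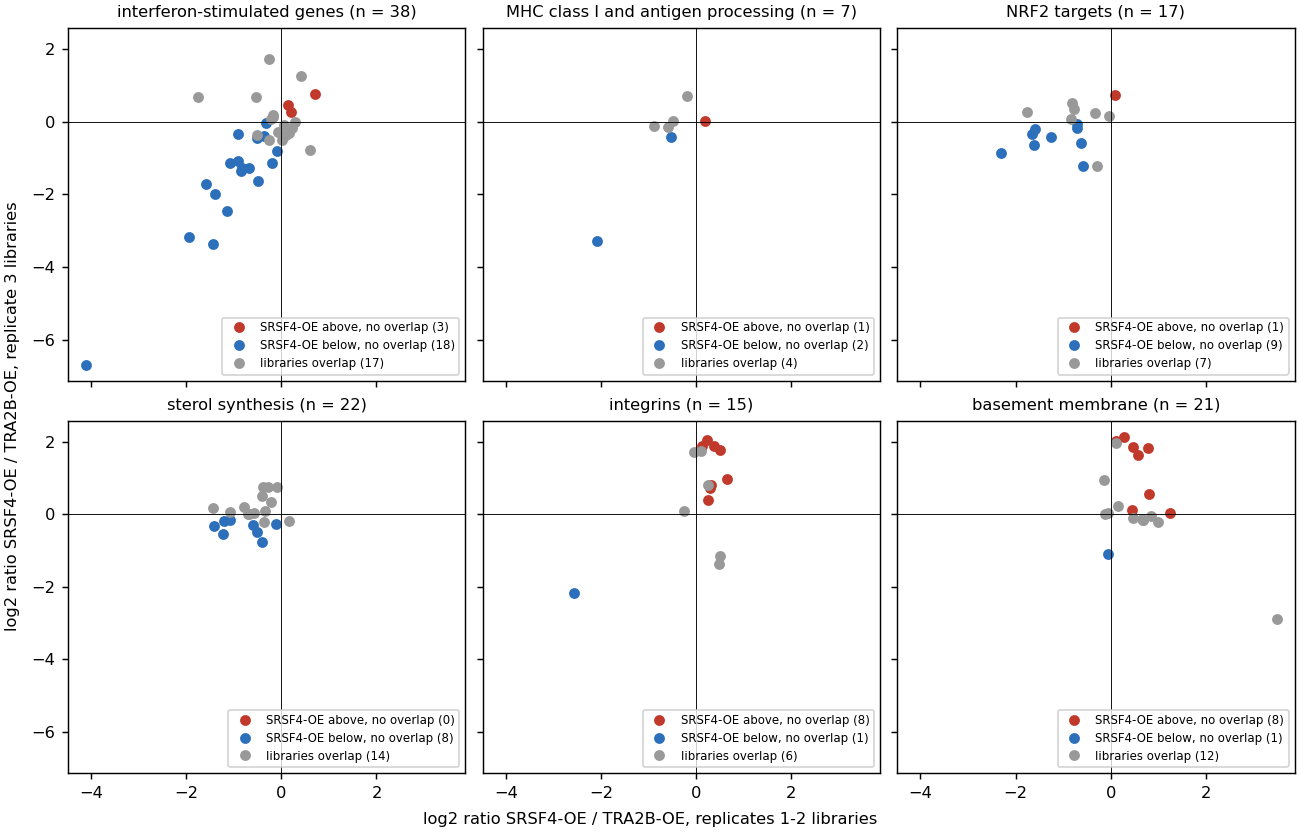
Members of 6 gene lists at their log2 ratio SRSF4-OE over TRA2B-OE in the replicates 1-2 libraries (horizontal) and in the replicate 3 libraries (vertical); red, SRSF4-OE above in both libraries without overlap, blue, below, grey, overlapping. Interferon-stimulated genes trail to the lower left with 18 blue points, and sterol synthesis genes spread along the horizontal axis, with medians of -0.54 and 0.011 in the pairs.

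The other genes named as lower are varied in kind. ATOH8, a basic helix-loop-helix transcription factor gene, stood at 3.67 and 0.354 CPM in SRSF4-OE, against 34.8 and 27.4 CPM in TRA2B-OE (-5.19 ± 1.32, DESeq2 adjusted p = 0.012). PLLP, which encodes the membrane proteolipid plasmolipin, stood at 98.2 and 94.7 CPM in SRSF4-OE, against 202 and 432 CPM in TRA2B-OE (-1.65 ± 0.30, DESeq2 adjusted p = 0.0013). In PLLP the SRSF4-OE libraries lay among the other groups (65.7 to 110 CPM) and both TRA2B-OE libraries lay above all 10. Both TRA2B-OE libraries also lay above all 10 in ATOH8, in the adaptor gene STAC2 (-4.48 ± 1.43, DESeq2 adjusted p = 0.028) and in TBX3, a T-box factor gene needed for mammary gland development. TBX3 stood at 6.79 and 6.23 CPM in SRSF4-OE, against 15.3 and 10.8 CPM in TRA2B-OE (-0.97 ± 0.21, DESeq2 adjusted p = 0.0083).

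CDKN1C, the cyclin-dependent kinase inhibitor p57, stood at 14.9 and 19.4 CPM in SRSF4-OE, against 29.2 and 78.7 CPM in TRA2B-OE (-1.55 ± 0.34, DESeq2 adjusted p = 0.019). KANK2, a regulator of focal adhesions, stood at 37.7 and 35.6 CPM in SRSF4-OE, against 60.3 and 75.0 CPM in TRA2B-OE (-0.88 ± 0.20, DESeq2 adjusted p = 0.0497). Along with THNSL2, KANK2 and ZCCHC24 (-1.47 ± 0.34) were the lower genes whose SRSF4-OE libraries were below all 10 others. NRSN2 (-2.76 ± 0.69) and SMIM14 (-2.04 ± 0.48) complete the named set. TFPI2, a protease inhibitor gene, was chosen after its values were seen. It had 0 and 0 counts in SRSF4-OE, against 109 and 31 counts in TRA2B-OE replicates 1-2 and 3. That was at least 42.3-fold lower in SRSF4-OE with a floor of 3 counts over the group. TFPI2 was low throughout, at 1.11 and 0.611 CPM in TRA2B-OE and 0.00896 to 1.57 CPM (median 0.122) in the other 10 libraries. Control replicates 1-2 and 3 were at 0.0306 and 0.0589 CPM.

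The epithelial splicing regulator ESRP1, which drives epithelial exon choice, was low in SRSF4-OE relative to TRA2B-OE. ESRP1 stood at 12.5 and 11.2 CPM in SRSF4-OE, against 52.6 and 141 CPM in TRA2B-OE. The groups did not overlap and the pairs gave -2.07 and -3.65; the log2 fold change of -2.79 ± 0.85 missed DESeq2's threshold narrowly (adjusted p = 0.052; edgeR adjusted p = 0.784). Of the other 10 libraries, 9 were above both SRSF4-OE libraries, but SRSF2-OE replicates 2 and 3 were also low, at 12.1 and 19.3 CPM. The rest of those 10 stood at 68.35 to 187.8 CPM. KHDRBS3, another splicing regulator, stood at 4.19 and 5.09 CPM in SRSF4-OE, against 3.10 and 2.27 CPM in TRA2B-OE (0.78 ± 0.34). The 19 tested members of that list of splicing regulators split 9 above and 10 below 0 with a median of -5.3e-04 (0.15 without TRA2B-OE replicate 3), and the 21 hnRNP genes split 10 and 11.

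The median of sterol synthesis genes was below 0 in the replicates 1-2 pair and near 0 in the replicate 3 pair. FDPS, which encodes farnesyl diphosphate synthase, stood at 232 and 339 CPM in SRSF4-OE, against 543 and 490 CPM in TRA2B-OE (-0.90 ± 0.20, DESeq2 adjusted p = 0.033). FDPS overlaps RUSC1-AS1 (-0.91 ± 0.19), also a DESeq2 call, and reads of the 2 may be shared. Of 25 genes 22 were tested, 18 below 0, with a median of -0.38; the pair medians were -0.54 and 0.011, and the median without TRA2B-OE replicate 3 was -0.65. The enzyme genes MVD (-0.76 ± 0.31) and ACAT2 (-0.68 ± 0.28) and the feedback regulator INSIG1 (-0.98 ± 0.45) had ratios of -1.21, -1.09 and -1.42 in the replicates 1-2 pair and of -0.19, -0.17 and -0.34 in the replicate 3 pair. In fatty acid synthesis ACSL1 (-0.56 ± 0.20), FASN (-0.61 ± 0.24) and FADS1 (-0.68 ± 0.29) were lower in both pairs without passing a test, while the list split 5 above and 9 below 0.

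Targets of NRF2, the transcription factor of the oxidative stress response, gave the lowest median among the lists with 10 or more tested genes. Of 17 tested, 15 lay below 0, with a median of -0.60, pair medians of -0.77 and -0.17, and 0 calls by either tool. In 9 of them SRSF4-OE was below TRA2B-OE without overlap, against 19.2% of all genes. The aldo-keto reductase gene AKR1C1 stood at 45.7 and 44.6 CPM in SRSF4-OE, against 225 and 80.7 CPM in TRA2B-OE (-1.70 ± 0.45, DESeq2 adjusted p = 0.056); it has close paralogs. The pentose phosphate enzyme gene TALDO1 stood at 69.7 and 80.9 CPM in SRSF4-OE, against 107 and 121 CPM in TRA2B-OE (-0.60 ± 0.15, DESeq2 adjusted p = 0.063), and its pairs were alike at -0.61 and -0.58. The glutathione synthesis gene GCLM (-1.20 ± 0.37) was likewise lower in both pairs.

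**Figure D5:**
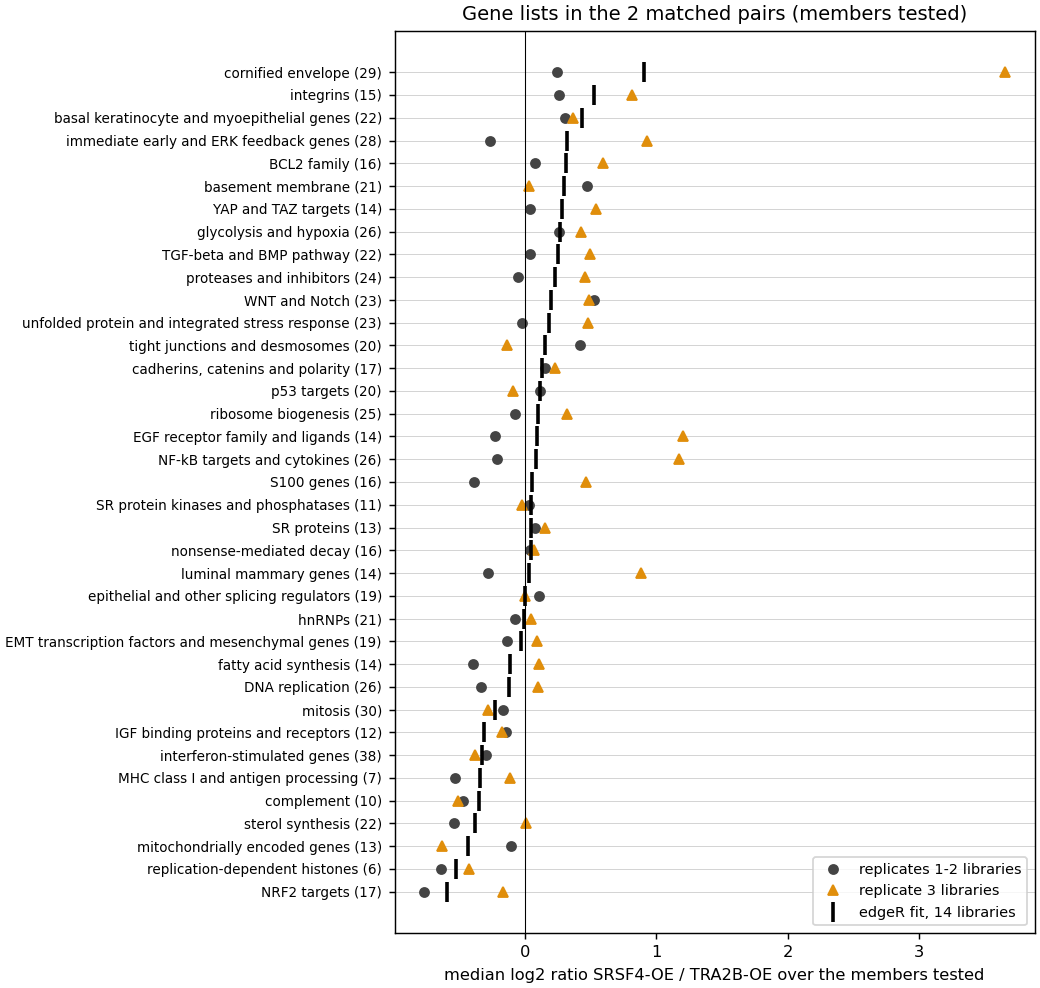
Median log2 ratio SRSF4-OE over TRA2B-OE of the tested members of each gene list, in the replicates 1-2 libraries (circles), the replicate 3 libraries (triangles) and the edgeR fit (bars); the number tested follows each name. Interferon-stimulated genes, complement, histones and NRF2 targets lie left of 0 by all 3 marks, integrins and basal genes lie right, and cornified envelope genes reach 3.66 in the replicate 3 pair against 0.24 in the other.

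Genes of the basal cell and of its attachment to the basement membrane mostly had fold changes above 0 and, apart from EGFR, none was called. Of 22 tested basal keratinocyte and myoepithelial genes 16 lay above 0, with a median of 0.43, and EGFR was the DESeq2 call. COL17A1, a hemidesmosome collagen, stood at 3534 and 3896 CPM in SRSF4-OE, against 1460 and 2929 CPM in TRA2B-OE (0.84 ± 0.30, adjusted p = 0.784 by edgeR). KRT14, the keratin of basal cells, stood at 4976 and 6696 CPM in SRSF4-OE, against 3082 and 1433 CPM in TRA2B-OE (1.29 ± 0.61; 0.55 without TRA2B-OE replicate 3). MYLK, myosin light chain kinase, was at 0.995 ± 0.32. Neither tool called these 3. Other basal markers lay below 0 with overlapping libraries: the keratin genes KRT5 at -0.48 ± 0.43, KRT15 at -1.95 ± 1.196 and KRT6A at -0.29 ± 0.24, and the basal factor gene TP63 at -0.14 ± 0.24. Without TRA2B-OE replicate 3, KRT5, KRT15 and TP63 were at 0.095, 0.72 and 0.39.

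Integrins had a median of 0.52, with 11 of 15 above 0 and 8 above without overlap, against 17.2% of all genes; 0 were called. The laminin receptor chain ITGB4 stood at 2442 and 3060 CPM in SRSF4-OE, against 1564 and 1574 CPM in TRA2B-OE (0.78 ± 0.61), and its partner ITGA6 was at 0.52 ± 0.37. Without TRA2B-OE replicate 3 the median of the list was 0.041. ITGA1, a collagen receptor chain, was at 1.08 ± 0.36, and ITGAV at 0.48 ± 0.30 with overlapping libraries. ITGA4, a chain of leukocyte integrins, went the other way at 0.158 and 0.188 CPM in SRSF4-OE, against 1.09 and 0.946 CPM in TRA2B-OE (-2.56 ± 1.04). Basement membrane genes had 17 of 21 above 0, with a median of 0.30 and pair medians of 0.48 and 0.034; LAMA5, a laminin chain, stood at 787 and 797 CPM in SRSF4-OE, against 453 and 547 CPM in TRA2B-OE (0.67 ± 0.23).

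Cornified envelope genes, the outer shell proteins of keratinocytes, differed most in the replicate 3 pair. Of 29 tested, 20 lay above 0 with a median of 0.90, but the median was 0.24 in the replicates 1-2 pair, 3.66 in the replicate 3 pair and -0.054 without TRA2B-OE replicate 3. The crosslinking enzyme gene TGM1 differed in both pairs, at 74.0 and 108 CPM in SRSF4-OE, against 28.2 and 31.9 CPM in TRA2B-OE (1.57 ± 0.50, DESeq2 adjusted p = 0.168). Among members under 2 CPM, the protease gene KLK8 (4.43 ± 1.21) and KRT4 (3.07 ± 1.17) lay above 0 and KRT13 below (-2.34 ± 0.84), none of them a call. Among hypoxia and glycolysis genes, 19 of 26 lay above 0 with a median of 0.27 (0.17 without TRA2B-OE replicate 3), and CA9, a carbonic anhydrase induced by hypoxia, stood at 2.35 and 30.3 CPM in SRSF4-OE, against 0.396 and 0.552 CPM in TRA2B-OE (3.96 ± 1.60). EGLN3 (2.38 ± 1.07), P4HA1 (0.63 ± 0.28) and NDRG1 (1.21 ± 0.64) were higher in both pairs; 0 of the list were called.

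In junction and signalling lists, CLDN1, a tight junction claudin, stood at 61.7 and 85.8 CPM in SRSF4-OE, against 28.4 and 13.99 CPM in TRA2B-OE (1.82 ± 0.72), and E-cadherin, CDH1, at 186 and 266 CPM in SRSF4-OE, against 113 and 180 CPM in TRA2B-OE (0.65 ± 0.23). Both lists had more members above 0 than below, 14 of 20 and 12 of 17, and 0 calls. The WNT and Notch list held 2 DESeq2 calls of 23 tested, against 0.356% of all genes: LGR6, an R-spondin receptor, at 0.643 and 1.79 CPM in SRSF4-OE, against 0.0710 and 0.0394 CPM in TRA2B-OE (4.11 ± 1.06, DESeq2 adjusted p = 0.028), and the WNT antagonist NKD1, at 1.74 and 2.67 CPM in SRSF4-OE, against 0.497 and 0.650 CPM in TRA2B-OE (1.92 ± 0.49, DESeq2 adjusted p = 0.045). Both are near the low end of measured genes, and of the 4 fits without a library LGR6 was called in 1 and NKD1 in 0 (DESeq2 adjusted p for NKD1 0.071 to 1). WNT3A, a ligand at 0.0113 and 0 CPM in SRSF4-OE, against 0.386 and 0.414 CPM in TRA2B-OE, was not called (DESeq2 adjusted p = 0.116). The Notch ligand JAG1 (1.15 ± 0.42) and the WNT inhibitor SFRP1 (0.68 ± 0.27) were higher in both pairs without a call. The protease inhibitor TIMP1 stood at 178 and 188 CPM in SRSF4-OE, against 465 and 367 CPM in TRA2B-OE (-1.20 ± 0.36, DESeq2 adjusted p = 0.178).

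Mitosis genes lay below 0 in 26 of 30 with a median of -0.23, which was -0.011 without TRA2B-OE replicate 3. In 0 of them were the libraries of the groups without overlap, against 36.3% of all genes. The replicate 3 libraries were higher in both groups: the mean log2 CPM of the list was 5.13 and 5.97 in SRSF4-OE, against 5.27 and 6.22 in TRA2B-OE. All 13 mitochondrially encoded genes lay below 0, with a median of -0.43, and the median without TRA2B-OE replicate 3 was 0.13. The p53 target list had a median of 0.11 and MDM2, the ubiquitin ligase of p53, a log2 fold change of 0.66 ± 0.23 with overlapping libraries. The luminal keratin gene KRT8 was at -0.69 ± 0.29 and the luminal factor gene GATA3 at -0.80 ± 0.36, which was -0.0057 without TRA2B-OE replicate 3, while the epithelial factor gene ELF3 was at 1.92 ± 0.80, and the luminal list split 7 and 7 with 0 calls.

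Markers of other cell types were low or mixed. Summed adipocyte markers were 0.744 and 0.917 CPM in SRSF4-OE, against 5.23 and 1.83 CPM in TRA2B-OE. ADIPOQ, LEP and LPL were listed at 0 in all 4 libraries. The lipid droplet gene PLIN1 (-2.48 ± 0.41, DESeq2 adjusted p = 5.5e-04), a DESeq2 call, belongs to this list of 6. Summed leukocyte markers were 5.76 and 4.84 CPM in SRSF4-OE, against 5.601 and 8.27 CPM in TRA2B-OE, with 5 of 8, among them PTPRC and CD3E, under 1 CPM. Summed endothelial markers were 11.5 and 8.88 CPM in SRSF4-OE, against 5.81 and 6.05 CPM in TRA2B-OE, with 5 of 7, among them CDH5 and VWF, under 1 CPM. Summed fibroblast markers were 473 and 375 CPM in SRSF4-OE, against 471 and 260 CPM in TRA2B-OE; FAP was 50.9 and 64.3 CPM in SRSF4-OE, against 16.2 and 0.650 CPM in TRA2B-OE, while COL1A2, COL3A1, PDGFRA, LUM and THY1 were under 1 CPM. In these bulk samples, fewer cells of a type and less RNA per cell cannot be told apart, and the part of these markers in the results above was not tested.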

How the data were processed

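RNA of MCF-10A cells at day 8 of Matrigel culture was sequenced as paired 101-base reads from stranded mRNA libraries, per the labels' protocols. The authors' deposited table holds raw counts per gene for 60252 IDs. The submitters' processing notes list, with no order, Trimmomatic 0.36, STAR 2.5.1b, Subread, featureCounts and GRCh37; they do not tell how strand and multiply aligned reads were handled. Gene names came from GENCODE 29 by unversioned ID (55951 matched); no coordinates were taken from it.

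Lanes of 1 library were summed: mean chi-square per gene between lanes was 4.09 in SRSF4-OE and 3.82 in TRA2B-OE, and 58.8 to 275.6 between libraries of 1 group. In R 4.3.3, the 14 libraries were filtered with filterByExpr (minimum count 10), normalised by TMM and fitted in edgeR 4.0.16 (quasi-likelihood) with group and label set, leaving 7 residual degrees of freedom; the contrast was SRSF4-OE minus TRA2B-OE. The label set term is also the replicate block. DESeq2 1.42.0 and limma 3.58.1 were alternatives, and the fitting was tested on simulated data. A gene was called at an adjusted p under 0.05. DESeq2 gave no adjusted p for 1668 genes. Log2 CPM used a prior count of 2. The standard errors were derived from edgeR's test, as the log2 fold change without its sign over the square root of the quasi-likelihood F statistic. The 24 named genes were the 12 highest and 12 lowest by the smaller pair ratio among DESeq2 calls, since edgeR gave none: protein-coding, at least 5 CPM in the higher group, without overlap. Members of 42 gene lists were named by smallest p; where a list's strongest members are not named its counts stand for them, and genes outside these rules were chosen after their values were seen. The comparison, lists and rules were chosen with earlier results of these data known. Some genes that these rules name are not reported here.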

Additional observations from a re-analysis of the deposited data

How the results depend on the processing

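The edgeR count of 0 was also 0 with RLE size factors, without a filter, with limma-voom, with only the 4 libraries fitted (with or without the replicate block) and with no replicate block. It was 76 by DESeq2 and 150 with the 18 samples as separate replicates (82 higher, 68 lower), in which lanes count as replicates; 59 of the 150 were among the 76. Leaving out single libraries gave 0 to 9 genes, 9 without SRSF2-OE replicate 1, all lower; without that library and TRA2B-OE replicate 3 it was 3. The DESeq2 count was 27 with no replicate block, 76 without a filter, 276 with only the 4 libraries and the block, and 852 with 18 samples. It was 12 without SRSF4-OE replicates 1-2, 13 without SRSF4-OE replicate 3, 789 without TRA2B-OE replicates 1-2, 41 without TRA2B-OE replicate 3, and 106 without SRSF2-OE replicate 1 and TRA2B-OE replicate 3; the cause was not tested. DESeq2 alternatives, and the fit without both of those libraries, were chosen after seeing the data.

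The SRSF4 log2 fold change passed by DESeq2 (0.85, adjusted p = 5.0e-04), with 18 samples (0.85 by edgeR, 0.84 by DESeq2), by DESeq2 with no replicate block (0.85) or no filter (0.86), and by DESeq2 without TRA2B-OE replicates 1-2 (0.86). It did not pass by DESeq2 with only the 4 libraries (adjusted p = 0.077) or without SRSF4-OE replicates 1-2 (0.185), SRSF4-OE replicate 3 (0.463) or TRA2B-OE replicate 3 (0.0901), or without SRSF2-OE replicate 1 and TRA2B-OE replicate 3 (0.192), nor in any other edgeR or limma fit. It was 0.82 to 0.88 over the fits without one of these 4 libraries. The 24 named genes kept their direction in all 32 alternatives. They were picked for groups without overlap in these same libraries, so a reversal was unlikely beforehand. Small values of other SR genes changed sign. SRSF3 was 0.014 with RLE, 0.027 without a filter, 0.013 by DESeq2, 0.018 and 0.015 with only the 4 libraries (with and with no replicate block), and by DESeq2 0.012 with the 4 libraries, 0.0087 with no replicate block and 0.017 without a filter. With 18 samples SRSF1 was -0.010 and SRSF9 -0.011 (-0.017 and -0.018 by DESeq2).

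Without one library at a time, TRA2B ran from -0.26 to 0.14, SRSF9 ran from -0.15 to 0.27, SRSF1 ran from -0.12 to 0.26, SRSF3 ran from -0.13 to 0.16, SRSF5 ran from -0.0797 to 0.26, SRSF10 ran from -0.12 to 0.21, TRA2A ran from -0.56 to 0.25 by edgeR. Within these ranges SRSF9 was 0.051 and SRSF1 0.062 without SRSF9-OE replicate 2, SRSF10 0.17 without TRA2B-OE replicate 3 and TRA2A -0.20 without SRSF6-OE replicate 3. By DESeq2 the values that changed sign were TRA2B 0.092 and SRSF3 0.15 without SRSF4-OE replicates 1-2, TRA2B 0.15, SRSF3 0.087, SRSF5 -0.058 and SRSF10 -0.053 without TRA2B-OE replicates 1-2, SRSF9 -0.16, SRSF1 -0.13 and TRA2A 0.24 without both SRSF2-OE replicate 1 and TRA2B-OE replicate 3, SRSF9 -0.00841, SRSF1 -0.069, SRSF5 -0.067 and SRSF10 -0.11 without SRSF4-OE replicate 3, SRSF9 -0.16, SRSF1 -0.13 and TRA2A 0.24 without TRA2B-OE replicate 3. By edgeR SRSF3 was 0.011 without Control replicates 1-2, 0.16 without SRSF4-OE replicates 1-2 and 0.077 without TRA2B-OE replicates 1-2, TRA2B 0.10 and 0.14 in the same 2 fits, and without TRA2B-OE replicates 1-2 SRSF5 was -0.068 and SRSF10 -0.062. Deviations of the 2 libraries from their group mean correlated at 0.12 over genes between SRSF4-OE and TRA2B-OE. Those of SRSF4-OE correlated at 0.49 with SRSF6-OE and 0.47 with Control, and those of SRSF6-OE at 0.30 with Control. Those of TRA2B-OE correlated at -0.034 with SRSF6-OE and 0.022 with Control. With only 2 libraries each, and no label that ties the number to a shared batch, the block was kept for the label set alone. Depth limits genes under about 1 CPM.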
